A study of Mus musculus with 12 samples.

Results

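The calcium/calmodulin-dependent kinase family was described over the differentiation time course of adherent neural stem (ANS) cells. Its members were chosen from the gene symbols of the count and FPKM tables, because Camk2a was among the largest rises at T1 and fell back later. They were 10 genes, Camk2a, Camk2b, Camk2d, Camk2g, Camk1, Camk1d, Camk1g, Camk4, Camkk1 and Camkk2, of 22609 genes with counts. The values of Camk2a picked the family and are given as a description with no test, and the counts of members below are over the 9 others. ANS cells are a self-renewing monolayer of neural progenitors, here derived from normal mouse embryonic brain at E14.5, and no library carried a transgene or a deletion by its labels. RNAseq of polyadenylated RNA covered 12 libraries. At T0 (3 libraries) the cells proliferated in growth medium with 20 ng/ml FGF2 and 20 ng/ml EGF. At T1 (3 libraries) they had spent 2 days in medium D1, with 10 ng/ml FGF2 and 2 ng/ml EGF. At T2 (4 libraries) they had passed through medium D1 and then spent 2 days in medium B, with 10 ng/ml FGF2 and 20 ng/ml BDNF. The paper's protocol also places a dissociation and replating before medium D1, and a further one, on laminin, before medium B. By that protocol, medium D1 also holds less of the N2 supplement than growth medium and has B27 added. At T3 (2 libraries) the time after the change to medium B was 10 days, and the label is overt, GAD+ differentiation. The submitters call the replicates biological, but whether they came from separate cultures or cell derivations is not given, so p-values measure the spread between these libraries.

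Calmodulin binds calcium and then releases the autoinhibition of these kinases. The CaMKII holoenzyme is assembled from alpha, beta, gamma and delta subunits encoded by Camk2a, Camk2b, Camk2g and Camk2d. The alpha and beta forms are the abundant ones in mature forebrain neurons, where CaMKII acts in synaptic plasticity, and the gamma and delta forms are found in many tissues. CaMKI (Camk1, Camk1d, Camk1g) and CaMKIV (Camk4) need a further phosphorylation of their activation loop by the upstream kinases CaMKK1 and CaMKK2, and CaMKIV acts mostly in the nucleus, on CREB.

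Levels are given as CPM, the reads of a gene scaled to a common number of reads on genes per library, with a correction for library composition. Between 8910724 and 16631614 reads were counted on genes per library. T0 replicate 3 stood apart from the other T0 libraries: the chi-square per degree of freedom over genes was 96.4 and 99.9 against it, and 3.17 between T0 replicates 1 and 2. The T3 pair gave 32.4. Member values against T0 are therefore also given without T0 replicate 3. A call is an adjusted p under 0.05 in edgeR's quasi-likelihood test over all genes, and a change is a log2 fold change with its standard error (SE). In bulk RNA, a change in the share of cells of a type and a change in RNA per cell cannot be told apart. Positions are given on mm9. Over the 45 pairs of members, 0 share a stretch of 50 bases in their annotated coding transcripts.

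The sequences upstream of members that changed in opposite directions are shown first. RefSeq promoters (GRCm38.p6) were found for 7 members, and none was shown for Camk2a, Camk4 and Camk2g. The 250 bases before the annotated start are printed 5′ to 3′ on the strand of the gene for 2 members that were lower and 2 that were higher at T1 and T2, with capitals on each GC box (GGGCGG) and E box (CAGCTG) found on either strand. Camk2b and Camk1g were lower, and Camk2d and Camkk1 higher.
Camk2b: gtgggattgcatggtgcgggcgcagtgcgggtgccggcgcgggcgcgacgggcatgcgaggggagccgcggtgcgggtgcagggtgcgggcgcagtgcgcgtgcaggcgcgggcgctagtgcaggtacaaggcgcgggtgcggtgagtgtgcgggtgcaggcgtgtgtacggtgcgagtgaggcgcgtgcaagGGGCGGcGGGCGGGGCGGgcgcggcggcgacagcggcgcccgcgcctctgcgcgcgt
Camk1g: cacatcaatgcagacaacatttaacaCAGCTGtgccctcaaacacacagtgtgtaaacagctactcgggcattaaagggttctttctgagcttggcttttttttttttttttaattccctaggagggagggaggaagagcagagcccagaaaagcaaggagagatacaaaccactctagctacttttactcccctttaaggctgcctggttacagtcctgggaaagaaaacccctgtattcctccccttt
Camk2d: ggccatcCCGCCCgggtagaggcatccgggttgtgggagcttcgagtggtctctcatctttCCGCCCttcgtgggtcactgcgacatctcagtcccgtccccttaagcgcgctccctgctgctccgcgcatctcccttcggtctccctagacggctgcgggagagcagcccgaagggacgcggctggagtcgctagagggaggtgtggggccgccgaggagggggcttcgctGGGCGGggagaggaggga
Camkk1: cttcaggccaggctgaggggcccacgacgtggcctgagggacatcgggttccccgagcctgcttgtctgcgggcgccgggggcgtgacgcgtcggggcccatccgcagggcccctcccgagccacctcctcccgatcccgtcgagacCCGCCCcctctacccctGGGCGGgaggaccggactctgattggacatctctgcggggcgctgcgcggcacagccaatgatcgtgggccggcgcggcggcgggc
The windows were chr11:6065749-6065998 (minus strand) for Camk2b, chr1:193370283-193370532 (minus) for Camk1g, chr3:126596701-126596950 (plus) for Camk2d and chr11:73018738-73018987 (plus) for Camkk1. Camk2b held 3 GC boxes, at -57, -50 and -45 from the start, the last pair overlapping, and 44 CpG dinucleotides at 78.4% GC. Camk1g held 0 GC boxes and 1 E box at -224, with 1 CpG at 44.8% GC. Camk2d held 3 GC boxes at -243, -189 and -18, and Camkk1 2 at -103 and -86, with 23 and 29 CpG. Both directions of change were thus found among promoters with GC boxes, and the promoter of Camk1g was the poorest in CpG of the 4. Over 32851 RefSeq promoters of the same length the median was 52.4% GC and 6 CpG, and 32.7% held the GC box, 13% the E box, 12.4% the TATA box (TATAAA) and 1.55% the cyclic AMP response element (TGACGTCA). Neither of the last motifs was found upstream of the 7 members. A match is a description of letters and not a binding site.

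The alpha subunit gene, Camk2a (mm9 chromosome 18, 61085272 to 61147806, plus strand), was the lowest of the 4 CaMKII genes at T0 and the highest at T1 per length of transcript, with a mean of 1.3 and 61.3 FPKM (fragments per kilobase of transcript, scaled to the depth of the library). It stood at 5.15, 5.95 and 1.76 CPM in T0 replicates 1 to 3. At T1 it stood at 406, 392 and 319 CPM, and at T2 at 246, 318, 266 and 316. At T3 the libraries gave 193 and 97.1 CPM. No library outside T0 came near a T0 library, every T2 library was below every T1 library, and both T3 libraries were below every T2 library. The fitted differences from T0 were 6.42 (SE 0.43) at T1, 6.06 (SE 0.38) at T2 and 5.09 (SE 0.57) at T3 on the log2 scale, from 25 to 86 reads at T0. From T1 to T2 the difference was -0.37 (SE 0.12) and from T2 to T3 -0.98 (SE 0.25). Without T0 replicate 3, the T0 library with the lowest value, the differences at T1, T2 and T3 were 6.05, 5.69 and 4.72.

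**Figure D1:**
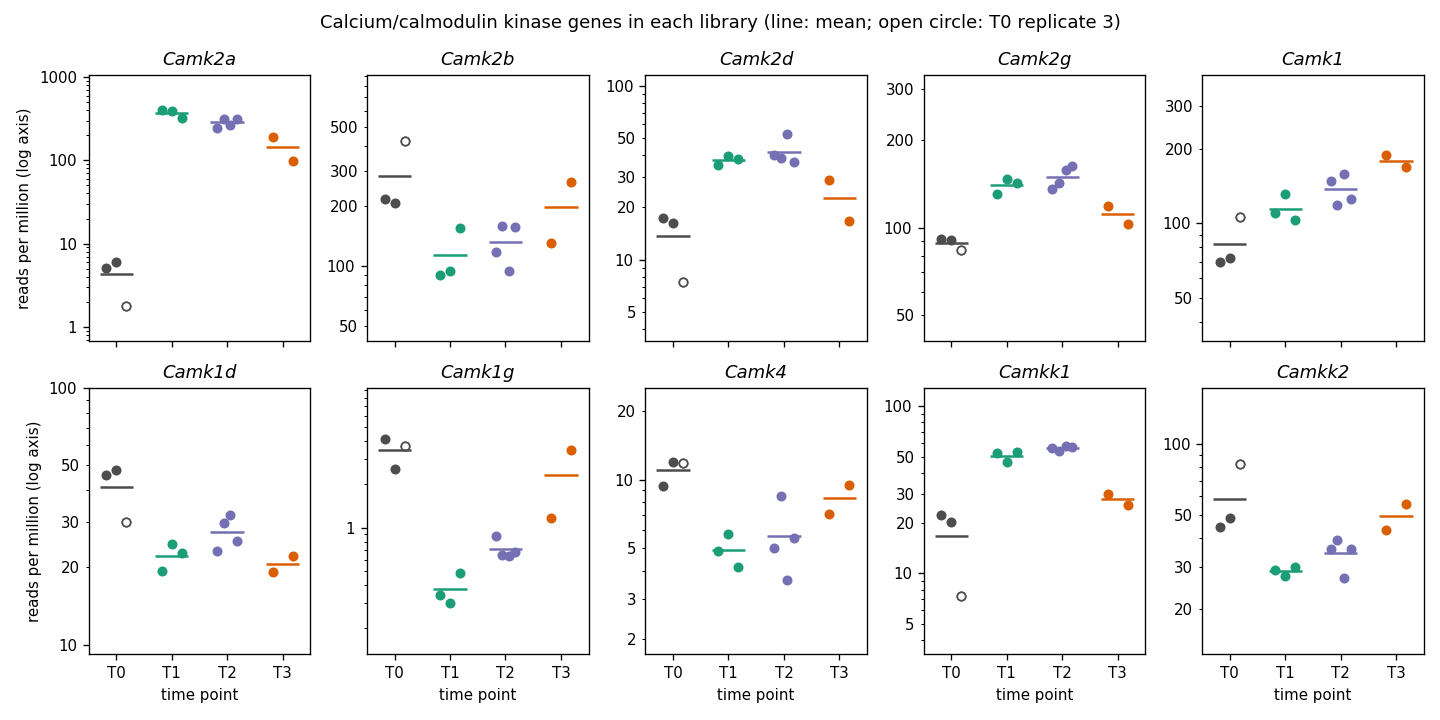
Level in CPM (log axis, a separate scale per gene) of the 10 kinase genes in each of the 12 libraries, by time point; horizontal lines are means and the open circle is T0 replicate 3. Camk2a rises from at most 5.95 to at least 97.1 CPM, while Camk2b, Camk1g, Camk1d and Camkk2 are lower at T1 than in any T0 library.

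Of the 9 other members, 3 were higher and 5 lower at T1 against T0, Camk1g included, beside 15.1% of 12364 genes tested that were higher and 16.8% that were lower. Camk1g passed the filter on low counts through its T0 libraries alone, which favours a difference. Over the other 8, 3 were higher and 4 lower, beside 14.1% higher and 17% lower of the 11473 genes that passed the filter in both groups, and their median log2 fold change was -0.22 against -0.03 for those genes. The values of the groups did not overlap for 8 of the 9, beside 56.3% of all genes tested. The higher members were Camk2d, Camk2g and Camkk1, and the lower ones Camk2b, Camk4, Camk1d, Camk1g and Camkk2. At T2 against T0, 4 were higher and 5 lower, with Camk1 added to the higher ones, beside 21.4% higher and 21.8% lower of 12607 genes. Over the 8 without Camk1g, 4 were higher and 4 lower, beside 19% and 23.1% of 11517 genes that passed in both groups, with a median of 0.08 against -0.04. At T3 against T0, Camk1 alone was called, higher, and 0 were lower, beside 3.31% higher and 1.41% lower of 12721 genes. At an unadjusted p under 0.05, 2 of the 9 (22.2%) passed at T3, a share below the 26.3% of all genes, and DESeq2 called 1 lower, beside 6.65% of the genes it tested. Without T0 replicate 3 every member called at T1 and T2 was called in the same direction and Camk1 was called higher at T1 as well, beside 25.2% higher and 24.9% lower of 12557 genes at T1 and 26.7% and 25.3% at T2. At T3 Camk1d was then called lower beside Camk1, beside 8.49% lower and 9.94% higher of all genes. The T3 comparison rests on 2 libraries. The comparisons with T0 share its 3 libraries, so their values are given side by side and not as separate evidence.

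**Figure D2:**
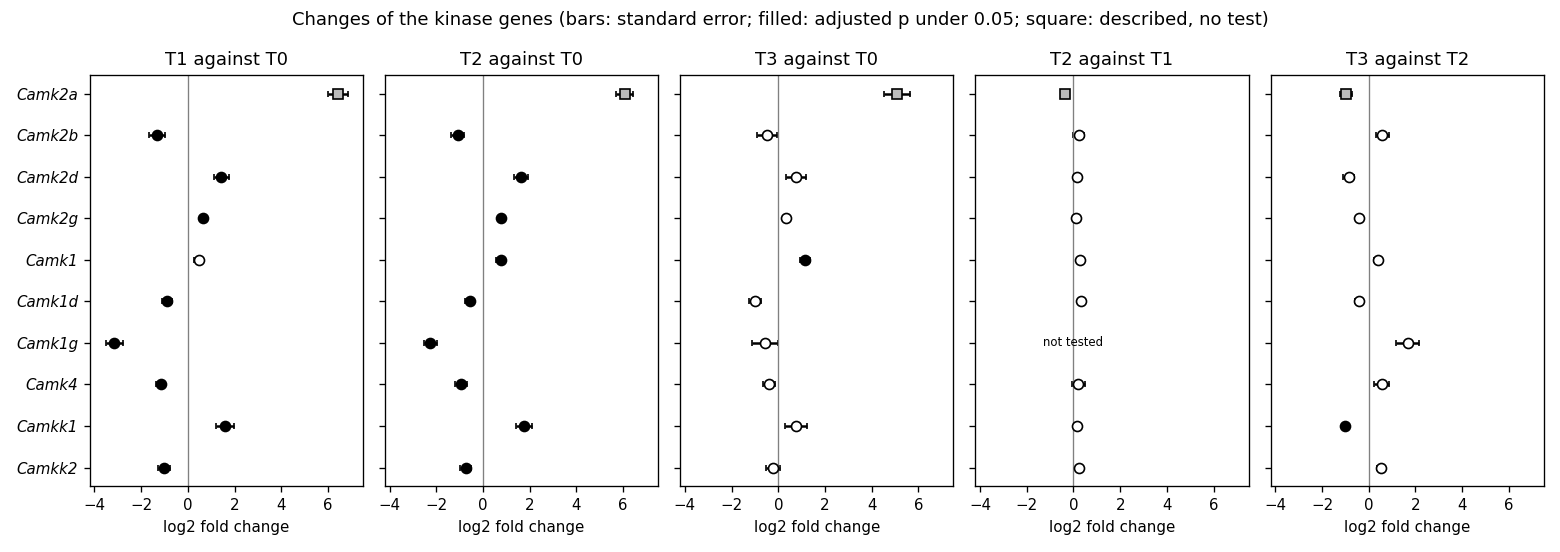
Log2 fold change (horizontal axis) of each kinase gene in the 5 comparisons, with bars of 1 standard error; filled circles passed an adjusted p of 0.05 and open circles did not, and the square marks Camk2a, which was not tested. In the T1 panel 3 members are filled on the right and 5 on the left, and at T3 against T0 Camk1 alone is filled. Camk1g, filled at T1 and T2 against T0, passed the filter through T0 alone.

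The beta subunit gene, Camk2b (chromosome 11, 5869647 to 5966365, minus strand), was the leading CaMKII gene of proliferating cells and fell at T1 and T2. It stood at 217, 207 and 421 CPM at T0, and the highest was T0 replicate 3. At T1 the values were 90.5, 93.9 and 155 CPM, all below T0, and at T2 they were 117, 159, 94.8 and 156. It fell by 1.32 (SE 0.34) at T1 on the log2 scale, with an adjusted p of 0.026, and fell by 1.09 (SE 0.28) at T2, with an adjusted p of 0.015. Without T0 replicate 3 these falls were -0.91 (adjusted p = 0.0061) and -0.68 (adjusted p = 0.01), and the call at T1 was lost without T1 replicate 1 (adjusted p = 0.1) or T1 replicate 2 (0.11). At T3 the libraries were far apart, at 131 and 264 CPM, and overlapped T0, with a difference of -0.50 (SE 0.43, adjusted p = 0.51), or -0.09 without T0 replicate 3.

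The delta and gamma subunit genes rose. Camk2d (chromosome 3, 126299220 to 126547972, plus strand) stood at 17.3, 16.3 and 7.48 CPM at T0, the last in T0 replicate 3, and at 34.9, 39.6 and 37.8 CPM at T1. Its 4 T2 libraries spanned 36.7 to 52.5 CPM, and none overlapped T0. The rise was 1.44 (SE 0.30, adjusted p = 0.013) at T1 and 1.62 (SE 0.29, adjusted p = 0.0027) at T2, and the first was not called without T1 replicate 2 (adjusted p = 0.057). Without T0 replicate 3 the rises were 1.15 and 1.32 (adjusted p of 3.9e-05 and 9.6e-05). Camk2g (chromosome 14, 21554097 to 21613310, minus strand) varied little at T0, where it stood at 90.9, 90.5 and 83.6 CPM. It was at 131, 147 and 143 CPM at T1 and between 136 and 163 CPM at T2. Its rise of 0.66 (SE 0.10, adjusted p = 0.0045) at T1 and 0.77 (SE 0.11, adjusted p = 0.0008) at T2 was called whichever library was left out, and was 0.62 and 0.73 without T0 replicate 3. At T3, with 28.9 and 16.6 CPM for Camk2d and 119 and 103 CPM for Camk2g, neither was called against T0, with all T0 libraries (0.75 and 0.34) or without replicate 3 (0.46 and 0.30).

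Levels of different genes are compared in FPKM, as the authors deposited them. The 4 CaMKII genes summed to 84, 84.3 and 157 FPKM in T0 replicates 1 to 3, and to 129, 134 and 144 at T1, 103 to 140 at T2, and 102 and 96.4 in the T3 libraries. The T0 mean of 108 FPKM rests on replicate 3, which lay above every other library. The mean sum at T1 was 1.25 times that of T0 with it and 1.61 times without it, beside 1.57 times for Camk2g without it. Camk2b made up 69.5%, 71.4% and 86.6% of the sum in the T0 libraries, and 19.2%, 21% and 33.6% at T1. Camk2a made up 2.28%, 1.46% and 0.47% at T0, and 51.5%, 48.7% and 36.2% at T1. At T2 the Camk2a share was 31.5% to 36.3% and the Camk2b share 21.9% to 36.2%, and their ranges overlapped. At T3 Camk2b again held the larger share, 41.5% and 63.2%, against 29.1% and 13% for Camk2a. Camk2g kept a mean share of 18.8% to 23.7% over the time points. The mean share of Camk2d went from 3.95% at T0 (1.14% to 5.42%) to 11.8% at T2 (6.18% to 20%). The 20% was that of T2 replicate 1, and the other T2 libraries gave 8.05%, 12.9% and 6.18%. The mean T0 shares without T0 replicate 3 were 1.87% for Camk2a, 70.4% for Camk2b, 5.36% for Camk2d and 22.3% for Camk2g. These shares are a description, since Camk2a enters each of them, and the FPKM given for 1 CPM varied 3.25-fold between libraries for Camk2a and 2.93-fold for Camk2d, against at most 1.4-fold for Camk2b and Camk2g. The shares of Camk2a and Camk2d are the less certain ones for that reason.

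**Figure D3:**
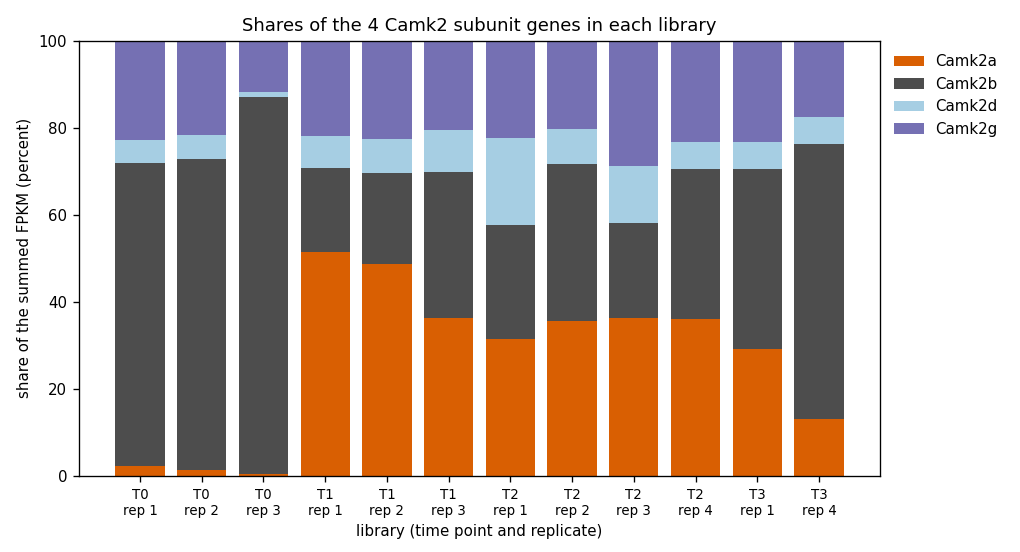
Stacked bars of the share (percent) of Camk2a, Camk2b, Camk2d and Camk2g in their summed FPKM, 1 bar per library in order of time point. Camk2b fills 69.5% to 86.6% of the T0 bars, Camk2a 36.2% to 51.5% of the T1 bars, and Camk2b is again the larger of the pair in both T3 bars.

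Among the CaMKI and CaMKIV genes, Camk1 rose at T2, Camk1d and Camk4 fell, and Camk1g was lower. Camk1 (chromosome 6, 113276966 to 113293978, minus strand), the CaMKI alpha gene, stood at 70, 72.1 and 106 CPM at T0, at 110, 131 and 103 CPM at T1 and at 149, 119, 159 and 125 CPM at T2. At T3 it stood at 190 and 169 CPM, above every other library. The highest T0 value was that of replicate 3 and overlapped T1. The difference was 0.46 (SE 0.19, adjusted p = 0.1) at T1, and 0.67 (SE 0.11, adjusted p = 0.00099) without T0 replicate 3. It rose by 0.75 (SE 0.18, adjusted p = 0.01) at T2 and by 1.13 (SE 0.22, adjusted p = 0.048) at T3, and by 0.96 and 1.35 without T0 replicate 3, each called. The T3 call was lost without any 1 of T0 replicates 1 and 2 and T3 replicates 1 and 4 (adjusted p from 0.13 to 0.32). Camk1 shares 232 exonic bases, 3.82% of its exonic length, with Ogg1, a DNA glycosylase gene on the opposite strand, and the library kit does not mark strand.

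Camk1g (chromosome 1, 195172540 to 195196491, minus strand), the CaMKI gamma gene, had the largest negative difference of the family at T1 and T2. It had 55, 37 and 52 reads at T0, which were 4.11, 2.56 and 3.67 CPM, and it passed the filter on low counts only through them. At T1 it had 4, 4 and 8 reads, or 0.343, 0.301 and 0.487 CPM, and at T2 0.64 to 0.869 CPM. No T1 or T2 library reached the lowest T0 value. The fitted differences were -3.15 (SE 0.36) at T1 and -2.27 (SE 0.28) at T2 on the log2 scale, and -3.09 and -2.22 without T0 replicate 3. They are given with no p, since entering the test only through the high group favours a difference. At T3 the libraries gave 1.16 and 3.45 CPM, the second within the T0 range, and the difference from T0 was -0.58 (SE 0.55, adjusted p = 0.54), or -0.55 without T0 replicate 3.

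Camk1d (chromosome 2, 5214503 to 5635561, minus strand), the CaMKI delta gene, stood at 46, 47.9 and 30 CPM at T0, at 19.3 to 24.7 CPM at T1, at 23.1 to 32 CPM at T2 and at 19.2 and 22.1 CPM at T3. It fell by 0.90 (SE 0.21, adjusted p = 0.019) at T1, a call that was lost when any library except T0 replicate 3 was left out (adjusted p from 0.051 to 0.084). At T2 it fell by 0.58 (SE 0.19, adjusted p = 0.039), with groups that overlapped, and was not called without T0 replicates 1 or 2 or T2 replicates 1, 2 or 4 (adjusted p from 0.067 to 0.12). Without T0 replicate 3, the lowest T0 library, the falls at T1, T2 and T3 were -1.09, -0.77 and -1.18, each called (adjusted p of 8.2e-05, 0.0008 and 0.013). With all libraries the T3 difference was -0.99 (SE 0.27, adjusted p = 0.088).

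Camk4 (chromosome 18, 33075480 to 33355421, plus strand), the CaMKIV gene, was low throughout, at 9.41, 11.9 and 11.8 CPM at T0, 4.14 to 5.8 CPM at T1, 3.65 to 8.45 CPM at T2, and 7.07 and 9.49 CPM at T3. It fell by 1.17 (SE 0.21, adjusted p = 0.0078) at T1 and fell by 0.95 (SE 0.27, adjusted p = 0.022) at T2. The T2 call was lost without T0 replicate 2, T2 replicate 1 or T2 replicate 4 (adjusted p from 0.057 to 0.061). The falls without T0 replicate 3 were -1.13 and -0.91 (adjusted p of 0.0015 and 0.018), and at T3 the difference was -0.40 with all T0 libraries and -0.36 without it, not called in either. Camk4 shares 182 exonic bases with 2310026I22Rik, a lincRNA gene on the opposite strand, and its FPKM for 1 CPM varied 4.34-fold between libraries, so its FPKM is the least certain of the family.

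The upstream kinase genes moved in opposite directions. Camkk1 (chromosome 11, 72832510 to 72855575, plus strand) stood at 22.3, 20.3 and 7.27 CPM at T0, at 52.4, 46.6 and 53.2 CPM at T1, and at 56, 54, 58.2 and 56.7 CPM at T2. It rose by 1.60 (SE 0.38, adjusted p = 0.021) at T1 and by 1.76 (SE 0.33, adjusted p = 0.0037) at T2. At T3 it stood at 29.8 and 25.7 CPM, still above each T0 library, with a difference from T0 of 0.75 (SE 0.47, adjusted p = 0.37). Camkk2 (chromosome 5, 123183213 to 123229391, minus strand), which also acts on AMP-activated kinase, stood at 44.7, 48.5 and 81.9 CPM at T0 and fell to 29.4, 27.7 and 30.1 CPM at T1 and 27.2 to 39.3 CPM at T2. It fell by 1.02 (SE 0.24, adjusted p = 0.02) at T1 and fell by 0.75 (SE 0.23, adjusted p = 0.027) at T2. At T3 it was at 43.3 and 55.5 CPM and overlapped T0. T0 replicate 3 was the lowest T0 library for Camkk1 and the highest for Camkk2, and without it the T1 changes were 1.24 (adjusted p = 3e-05) and -0.69 (adjusted p = 0.00039), and the T2 changes 1.40 and -0.43, each still called. The T3 differences were then 0.39 and 0.09, not called, the second against -0.23 with all T0 libraries. The T1 calls of both were lost when any 1 T1 library was left out, with adjusted p from 0.065 to 0.072 for Camkk1 and from 0.069 to 0.085 for Camkk2. The T2 call of Camkk2 was lost without T2 replicate 1, 3 or 4 (adjusted p from 0.057 to 0.07).

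The order of the family in FPKM changed over the time course. At T0 Camk2b led with a mean of 84.9 FPKM (59.3 without T0 replicate 3), followed by Camk1 with 48.3, whose ranges overlapped, and then by Camk2g with 18.7 and Camkk2 with 11.1. Camk1d, Camkk1 and Camk2d followed at 4.62, 3.77 and 3.6 FPKM with overlapping ranges, and Camk1g, Camk2a and Camk4 were at 1.41, 1.3 and 0.906 FPKM, also overlapping. At T1 Camk1 led with 65 FPKM beside Camk2a with 61.3, and these ranges overlapped, while Camk2b with 33.7 and Camk2g with 29.5 did not differ beyond their spread. At T2 Camk1 led alone with 73.4 FPKM, and Camk2a (42.7), Camk2b (37.1) and Camk2g (28.7) followed, each overlapping its neighbour. At T3 Camk1 led with 89.5 FPKM, and Camk2b, with 51.6, stood apart from Camk2a with 21.1. Camk4 and Camk1g were the lowest at T1, T2 and T3, at 0.114 to 1.14 FPKM. For Camkk1 and Camkk2 the order was reversed after T0, from 3.77 and 11.1 FPKM at T0 to 10.8 and 5.3 at T1 and 12 and 5.17 at T2, and Camkk2 was again above Camkk1 at T3, with 7.45 against 5.22 FPKM. Their ranges were separate at each time point.

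From T1 to T2 no member was called. Of 8 members tested other than Camk2a, 0 were called by edgeR, beside 0.573% of 12382 genes higher and 0.0565% lower, and 0 by DESeq2, beside 1.75% and 0.522%. At an unadjusted p under 0.05, 2 of the 8 (25%) passed, beside 11.7% of all genes, Camk1 at 0.28 (SE 0.12, adjusted p = 0.42) and Camk1d at 0.31 (SE 0.13, adjusted p = 0.41), both with overlapping groups. Camk1g was not tested, with 4 to 8 reads at T1 and 7 to 11 at T2. The replicate numbers may pair the T1 and T2 libraries, which the labels do not state. With the number as a block 0 members were called as well, beside 1.32% of all genes higher and 0.383% lower. That fit used only libraries whose number occurs in both groups.

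From T2 to T3 Camkk1 was called lower, and 0 members higher, beside 0.691% lower and 0.5% higher of 12599 genes. Camkk1 fell by 1.01 (SE 0.11, adjusted p = 0.02), from 54 to 58.2 CPM at T2 to 29.8 and 25.7 CPM at T3. The call was lost without T2 replicate 1, 3 or 4 (adjusted p from 0.059 to 0.076), lay at the threshold without T2 replicate 2 (adjusted p = 0.05), and was kept without either T3 library (adjusted p of 0.0031 and 0.016). It was also lost in 1 fit of all libraries, with the replicate block and with limma (adjusted p from 0.095 to 0.17). At an unadjusted p under 0.05, 7 of the 9 passed, beside 17% of all genes, and 6 of the 8 without Camk1g, which passed the filter through T3 alone. Among those not called, Camk2d differed by -0.86 (SE 0.24, adjusted p = 0.11), Camk2g by -0.43 (SE 0.12, adjusted p = 0.12), Camk1g by 1.67 (SE 0.48, no p given) and Camkk2 by 0.52 (SE 0.17, adjusted p = 0.16). Camk1 at 0.38 and Camk1d at -0.41 (adjusted p of 0.2 and 0.26) were the others. Of the 9 members, the same 7 had T2 and T3 values that did not overlap, beside 25.6% of all genes tested. Camk1g is among them, and its passing through T3 alone favours a difference. For the others the separation goes with the unadjusted p and is not separate evidence. DESeq2 called 3 lower, Camk2d, Camk2g and Camkk1, and 0 higher, beside 2.42% lower and 3.2% higher of the genes it tested. Without T3 replicate 1, Camk2b (1.01, adjusted p = 0.033), Camk2d (-1.33, adjusted p = 0.011), Camk2g (-0.54, adjusted p = 0.048) and Camkk2 (0.69, adjusted p = 0.048) were called beside Camkk1, and 6.46% of all genes were higher and 4% lower, on the 1 remaining T3 library, which the fit assumes to vary like those of T2. T3 replicate 4 was nearer to the T0 mean than T3 replicate 1 for all 10 members. Its level of Mki67, a gene of cycling cells, was 313 CPM against 195 in T3 replicate 1, 44.4 to 114 at T2 and 569 to 860 at T0. Its level of Dcx, a gene of young neurons, was 271 CPM against 546. Their part in the differences was not tested.

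The genes around these kinases were grouped in 10 lists of 103 genes, of which 102 were in the count tables. Over all lists 17 (20%) were higher and 11 (12.9%) lower of 85 tested at T1, beside 15.1% and 16.8% of all genes. At T2 26 (30.2%) were higher and 13 (15.1%) lower of 86, beside 21.4% and 21.8%. Their log2 fold change had a median of 0.03 and then 0.16, beside -0.01 and 0.00 over all genes. Over the genes that passed the filter in both groups, 16 of 79 were higher and 10 lower at T1, and 21 of 78 (26.9%) higher and 12 (15.4%) lower at T2, beside 19% and 23.1% of all such genes at T2. At T3 against T0, 4 (4.65%) were higher, Camk2n1, Pcp4, Adcy1 and Gria2, and 0 lower, beside 3.31% and 1.41% of all genes. Pcp4 passed the filter through T3 alone, which favours a difference. Over the genes that passed in both groups at T3 against T0, 3 of 81 (3.7%) were higher and 0 lower, beside 2.12% and 1.47%. DESeq2 called 16 higher and 5 lower there, beside 7.72% and 6.65% of the genes it tested. With T0 replicate 3 left out, 26 were higher and 16 lower at T1, 29 and 15 at T2, then 19 and 6 in the T3 comparison, beside 25.2% and 24.9%, 26.7% and 25.3%, and 9.94% and 8.49% of all genes. Of 39 list genes named in the following and called at T2, 37 were also called without that library, and Mylk (-0.50, adjusted p = 0.055) and Npas4 (1.37, adjusted p = 0.062) were not. The changes of Nfatc3, Atf1 and Shank3 shrank most among those called, to -0.34, -0.30 and 0.59. The counts of single lists at T2 are to be read against the shares of all genes, 21.4% higher and 21.8% lower, and none of them is singled out by its count.

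Genes of CaMKII inhibitors rose, and the calmodulin gene Calm2 fell. Of the 4 genes of kinase inhibitors and phosphatases, 2 were higher at T1, 3 at T2 and 1 at T3. Camk2n1, an endogenous inhibitor protein of CaMKII, went from 12.3 ± 2.85 CPM (SD, n = 3) at T0 to 101 ± 17.7 (SD, n = 3) at T1 and 106 ± 12.8 (SD, n = 4) at T2. On the log2 scale it rose by 3.03 (T1), 3.11 (T2) and 2.55 (T3), with adjusted p of 0.00049, 4.7e-05 and 0.02. Camk2n2, the other inhibitor gene, rose by 0.81 at T2 (adjusted p = 0.011), from 6.57 to 11.5 CPM, and stood at 0.65 at T1 (adjusted p = 0.098). Ppm1e, a phosphatase that removes the activating phosphate of these kinases, rose by 1.37 at T1 and 1.44 at T2 (adjusted p of 0.01 and 0.0018), and its relative Ppm1f differed by -0.01 and -0.07 (adjusted p of 0.95 and 0.64). Calm2, which encodes calmodulin, fell by 0.97 at T1 and fell by 1.03 at T2 (adjusted p of 0.016 and 0.0022), from 393 ± 114 CPM (SD, n = 3) at T0 to 192 ± 9.52 (SD, n = 4) at T2. Calm3, which encodes the same protein, stood at -0.24 at T2 and was not called.

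Genes of calmodulin-binding buffer proteins moved both ways. Of 5 tested, 3 were higher and 1 lower at T1 and at T2, with Pcp4, which passed the filter through the later group alone, among the higher ones. Nrgn, neurogranin, fell by 3.36 at T1 and fell by 2.90 at T2, from 10.9 ± 4.04 CPM (SD, n = 3) to 1.48 ± 0.487 (SD, n = 4). Pcp4, a small calmodulin-binding protein, had at most 2 reads per T0 library. Its T1 mean was at least 11.1-fold higher than a floor of 3 reads in each T0 library, and its T2 mean at least 33.1-fold higher. Marcks, a membrane-bound calmodulin-binding protein, rose by 0.66 at T2 and fell by 0.77 from T2 to T3 (adjusted p = 0.044), from 2404 to 1403 CPM. Marcksl1 rose by 0.60 at T2.

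Among enzymes regulated by calmodulin, Adcy1, a calmodulin-stimulated adenylyl cyclase, rose at every step. It went from 9.48 ± 0.457 CPM (SD, n = 3) at T0 to 24.5 ± 3.98 (SD, n = 3) at T1, 49.7 ± 12.6 (SD, n = 4) at T2 and 104 ± 9.48 (SD, n = 2) at T3. The rise was 1.35 from T0 to T1 (adjusted p = 0.0019), 1.03 from T1 to T2 (adjusted p = 0.047) and 1.07 from T2 to T3 (adjusted p = 0.049). It was the 1 list gene called from T1 to T2, and in 1 fit of all libraries 0 list genes were called higher at that step, beside 0.0232% of all genes. Of the 6 genes tested, 2 were called higher at T2. The other was Pde1a, a calmodulin-dependent phosphodiesterase, which passed the filter through T2 alone, with 5 to 20 reads at T0 and 22 to 39 at T2. Of 12 genes around calcineurin, the calmodulin-dependent phosphatase, 3 rose and 1 fell at T2, close to the share of all genes for the higher ones. Rcan2 (2.24) and Rcan1 (0.68), which regulate it, and Akap5 (1.68), which anchors it, rose, and Nfatc3 (-0.60), a transcription factor it acts on, fell. Among 12 other calmodulin-regulated or related kinases, 4 were called higher and 2 lower at T2, with Cask at 0.98, Dapk1 at 0.83, Phkg2 at 0.40 and Mylk, the myosin light chain kinase, at -0.57. The remaining pair passed the filter through 1 group alone, Dapk2 with 3 to 12 reads at T0 and 14 to 50 at T2, and Camkv with 35 to 46 and 3 to 9. Of 6 AMP-activated kinase subunits, which CaMKK2 can activate, 2 rose and 2 fell at T2, with Prkab2 at 0.50, Prkag2 at 0.37, Prkaa1 at -0.45 and Prkag1 at -0.41.

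Among the targets, 5 of 12 postsynaptic partners and substrates of CaMKII were called higher and 1 lower at T2. Grin1, an NMDA receptor subunit, was among the 5 but passed the filter through T2 alone, with 3 to 10 reads at T0 and 10 to 35 at T2, which leaves 4 that rose. Gria2, an AMPA receptor subunit, went from 29.4 ± 7.16 CPM (SD, n = 3) at T0 to 290 ± 58.4 (SD, n = 4) at T2, a rise of 3.31 (adjusted p = 7.3e-05), and was also called at T1 (2.84) and T3 (3.27). Kalrn, an exchange factor of spines, rose by 2.61 and Syn2, a synaptic vesicle protein, by 1.25, and Shank3 by 0.90, while Dlg4, the scaffold PSD-95, fell by 0.90, from 198 to 106 CPM. Of 18 nuclear targets 2 rose and 3 fell at T2. Crtc1, a CREB coactivator, rose by 0.44. Within the MEF2 factors Mef2b rose by 1.63, Mef2c fell by 1.00 and Mef2d fell by 0.55, and Atf1, a factor related to CREB, fell by 0.71. Of 8 activity-regulated genes tested 2 were called higher and 2 lower at T2. Npas4, with 4 to 7 reads at T0 and 6 to 23 at T2, passed the filter through T2 alone. Bdnf rose by 1.22, from 11.9 to 27.7 CPM, and the immediate early genes Egr1 and Junb fell by 2.04 and 1.63.

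**Figure D4:**
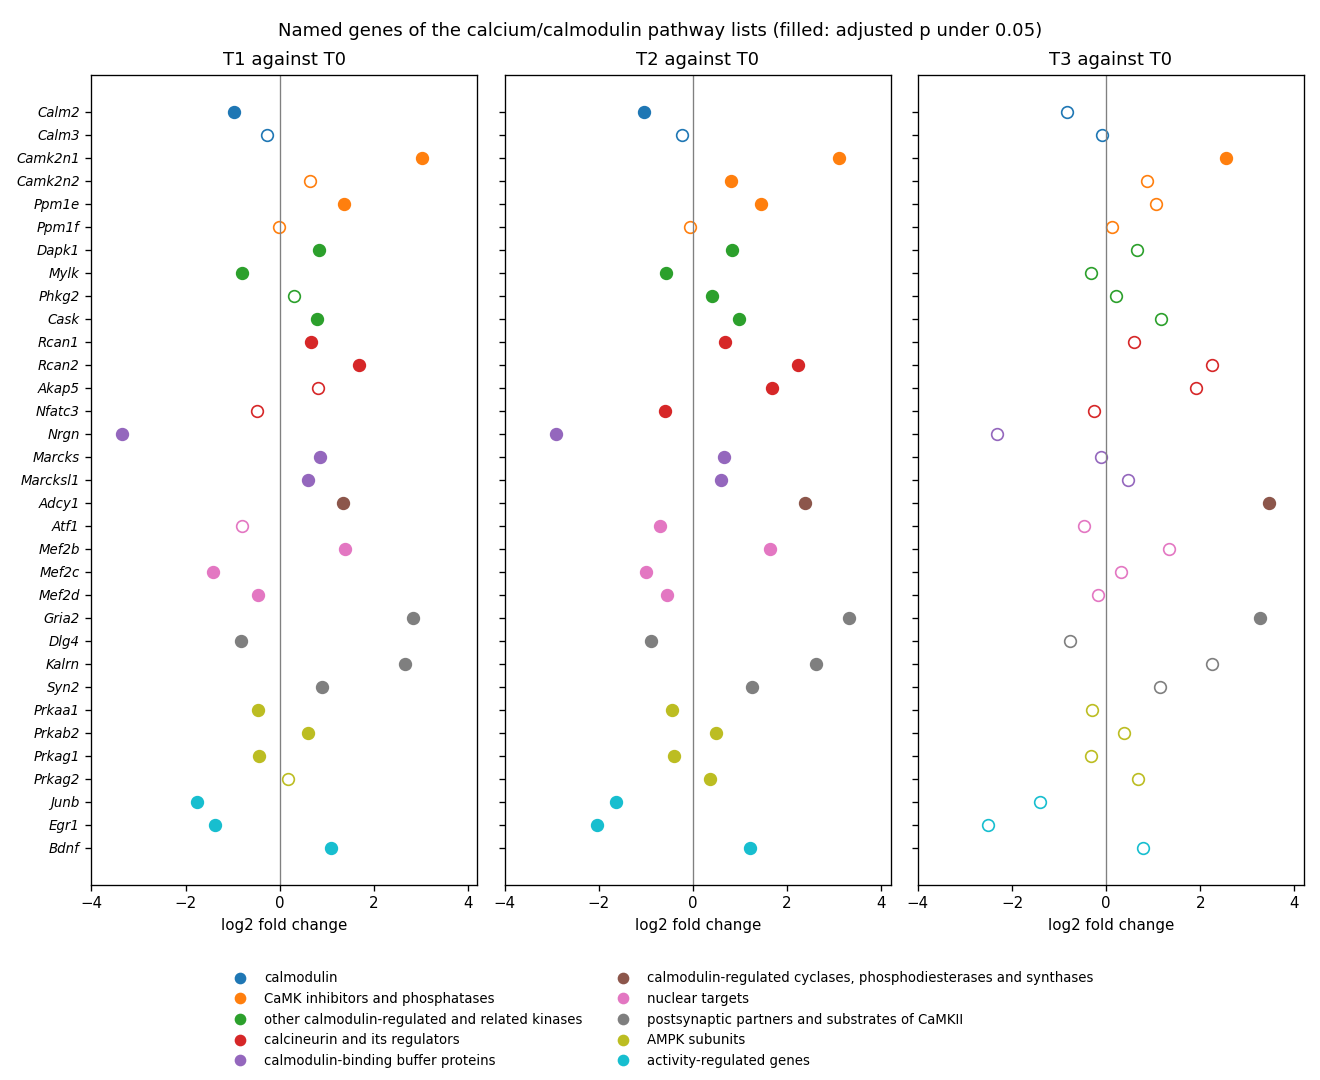
Log2 fold change (horizontal axis) of named genes of the 10 calcium/calmodulin pathway lists at T1, T2 and T3 against T0, coloured by list; filled points passed an adjusted p of 0.05. Camk2n1, Adcy1 and Gria2 are filled on the right in all 3 panels, and Nrgn lies farthest to the left at T1 and T2; Pcp4 is left out because its T0 libraries had at most 2 reads.

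The 5 genes whose level was most like that of Camk2a over the 12 libraries, among 11530 genes, were Mfsd6, Spon1, Sncaip, Rab43 and Grm3, each with a Pearson r of 0.99 in log2 CPM. Spon1, F-spondin, had mean levels of 115, 644, 608 and 470 CPM at T0, T1, T2 and T3, and Grm3, a metabotropic glutamate receptor, 25.9, 256, 237 and 191 CPM. Sncaip had 55.5, 287, 243 and 169 CPM. Like Camk2a, these were highest at T1 and intermediate at T3. Mfsd6 and Rab43 had 62.4 and 30.2 CPM at T1 and 16.6 and 11.8 CPM at T0. The 12 points are libraries of 4 groups and share their normalization, so r is a description of likeness.

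The labelled cells were checked against markers. Nes, Sox2, Vim, Pax6, Fabp7 and Mki67, markers of neural progenitors, summed to 5867 to 8270 CPM at T0, 5779 to 7111 at T1, 5082 to 5882 at T2 and, in the T3 pair, 5571 and 5930, most of it Vim, Nes and Fabp7. Within the list Mki67, the gene of cycling cells, went from 569 to 860 CPM at T0 to 31.4 to 84.3 at T1 and 44.4 to 114 at T2 (-3.59 and -3.12, adjusted p of 0.0011 and 0.00023), and Vim fell by 0.57 at T2 (adjusted p = 0.0067). The other 4 were not called at T1 or T2 with all T0 libraries. T0 replicate 3 stood apart from T0 replicates 1 and 2 for Fabp7 (2259 against 748 and 804 CPM), Nes (1815 against 846 and 960) and Sox2 (186 against 428 and 427). Fabp7 was at 1694 to 2289 CPM at T1. Neuron markers summed to 19.4 to 47.5 CPM at T0, 360 to 412 at T1, 435 to 574 at T2 and 379 to 750 at T3, most of it Dcx and Tubb3. Of the 7 genes Stmn2 had at most 1 read in any library, and Rbfox3, Snap25 and Syt1 reached no more than 2.32, 3.11 and 1.3 CPM. The 7 GABAergic markers summed to 4.73 to 7.77 CPM at T0, 36.2 to 43.8 at T1, 47 to 59.6 at T2 and, in the T3 pair, 26.1 and 50.3. At T3, labelled GAD+, Gad1 stood at 48.3 CPM in replicate 1 and 23.9 in replicate 4. It was at 32.7 to 40.5 CPM at T1 and 44 to 56.4 at T2. Gad1 made up 25.4% to 51.9% of the sum at T0, where Dlx1 was the rest, and 90.4% to 92.3% at T1. Gad1 rose by 3.75 at T1 (adjusted p = 0.00095) and Dlx1 stood at -0.06 (adjusted p = 0.85), while Dlx2 had at most 4 reads in any library, and Gad2, Slc32a1, Dlx5 and Dlx6 were at 0 in nearly every library. Camk2a is known from excitatory neurons of the forebrain. The markers of glutamatergic neurons summed to at most 2.59 CPM in any library, with Slc17a6 and Emx1 at 0 in all 12. Astrocyte markers summed to 947 to 2389 CPM at T0, 1512 to 1726 at T1, 1783 to 2075 at T2 and, in the T3 pair, 1442 and 1748. The lowest value was that of T0 replicate 3. Of 7 astrocyte genes tested, 0 were called higher and 2 lower at T2, beside 21.4% and 21.8% of all genes, and 0 were called at T1 or T3. Oligodendrocyte lineage markers, led by Olig1 and Olig2, gave 3156 to 3624 at T0, 3963 to 4277 at T1 and 3958 to 4557 at T2. Of these genes, 1 of 6 tested was called higher at T1 and 3 of 7 at T2, and 0 were lower. Of all genes, 15.1% were higher at T1 and 21.4% at T2. Cspg4 and Mog were at 0 CPM in T0 replicate 3 and could pass the filter at T2 only through their T2 libraries. Pdgfra, of the same list, ranged from 3.67 to 30 CPM in proliferating cells and from 89.1 to 195 CPM in the T1 libraries. Markers of microglia, endothelium and fibroblasts summed to at most 1.34 CPM. Of the neuron markers Dcx (5.29) and Tubb3 (2.60) were called higher at T1 and Syp (0.15) was not. Snap25 (3.08) was also called, but it passed the filter through T1 alone, which favours a difference. It stood at 0.0747 to 0.277 CPM at T0 and 0.852 to 2.18 at T1. From T0 to T1, Dcx, Tubb3, Pdgfra and, of the GABAergic markers, Gad1 alone rose along with Camk2a. Their part in its level was not tested.

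**Figure D5:**
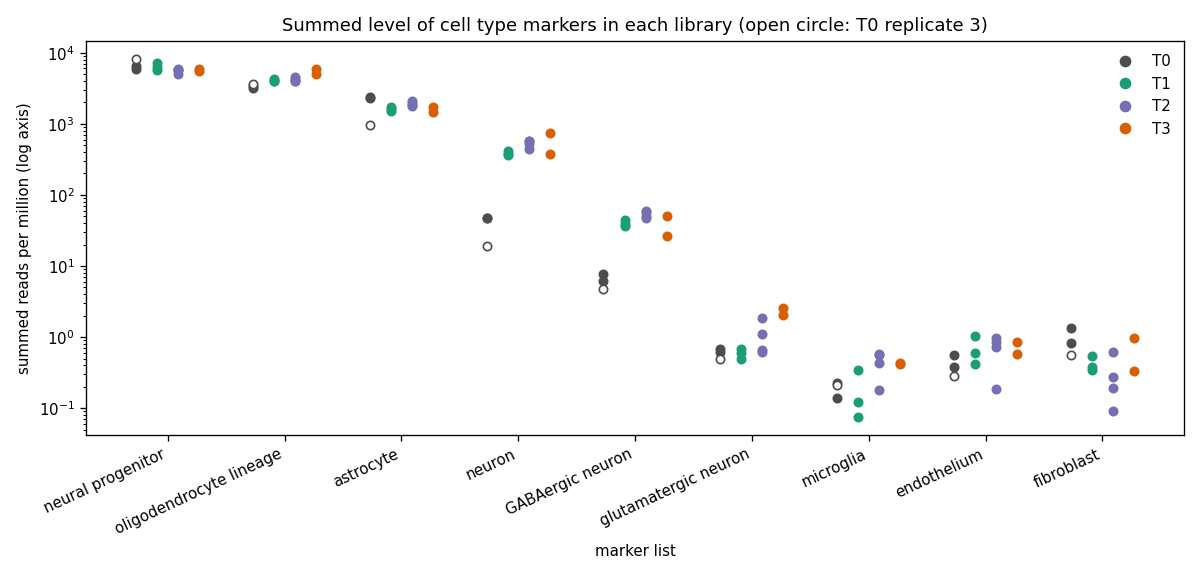
Summed CPM (log axis) of each cell type marker list in each of the 12 libraries, by time point; the open circle is T0 replicate 3. Neuron markers are at most 47.5 CPM at T0 and at least 360 CPM in every later library, while glutamatergic markers stay at or below 2.59 CPM.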

How the data were processed

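RNAseq counts of 12 libraries of mouse ANS cells (T0, T1, T2 and T3 with 3, 3, 4 and 2) were analysed. According to the labels, the authors made polyA libraries with the TruSeq RNA kit v2 and sequenced them on an Illumina HiScanSQ. The submitters' processing notes name CASAVA 1.8, TopHat2 2.0.6, Bowtie 0.12.7.0, HTSeq 0.6.0, DESeq2 1.0.0 and the build mm9. Read length and strand setting were not given in the sources used here. The deposited counts are whole reads per gene, without normalization, for 22609 genes. A further 5 rows that name no gene entered neither the library sizes nor any test. Between 13.3% and 24.06% of uniquely aligned reads fell on no gene. The authors also deposited FPKM values per gene, with the tool not given in the sources used here. They served for levels between genes and the CaMKII shares. Columns of other samples numbered 0.

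Each comparison used the libraries of its 2 groups, TMM normalization, the filterByExpr filter on low counts and edgeR's (4.0.16, R 4.3.3) quasi-likelihood test, with Benjamini-Hochberg adjustment over all genes and a threshold of 0.05. The filter asks for about 10 reads in as many libraries as the smaller group holds, and a gene was taken to pass through 1 group alone when the group with the lower mean did not meet this by itself. Counts over genes that passed in both groups, and list genes and CaMKII shares without T0 replicate 3, were added after seeing the data. DESeq2 1.42.0, limma 3.58.1 on log2(FPKM + 1) or log2(FPKM + 0.1) for genes with a mean FPKM of at least 1, no filter, other size factors, 1 fit of all libraries, the replicate number as a block, libraries numbered 1 and 2 alone, and each library left out were the alternatives. A fold change of FPKM is on the log2 scale with that pseudocount, which understates the change of low genes. The tests were also run on simulated counts with known changes. Of 100 genes changed by 1 on the log2 scale, edgeR recovered 42 at T1, 63 at T2 and 5 at T3 against T0. Calls that fell on unchanged genes were 8.97%, 4.38% and 5.06% of all calls there. For T2 against T1 they were 9.62% and for T3 against T2 7.43%. A gene not called at T3 against T0 may thus still have changed. The depth, 8910724 to 16631614 reads on genes, limits the precision of the lowest genes, and a gene with at most 3 reads in every library of a group is given as a bound. Medians of lists with such genes at their bound were the same to 2 decimals.

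The labels share replicate numbers. Deviations from group means over 12791 genes correlated at 0.21, 0.34 and 0.17 between same-numbered T1 and T2 libraries. They correlated at -0.02, 0.12 and 0.07 for T0 and T1, and at -0.08, 0.01 and -0.16 for T0 and T2. For T2 and T3 the same numbers gave -0.03 and 0.26. Libraries with different numbers reached 0.39 (T1 replicate 3 with T2 replicate 4) and 0.46 (T0 replicate 3 with T3 replicate 4). The numbers were thus taken as a possible pairing of T1 with T2 only. It is a hint from the data that these values do not settle, and not from the design.

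The members and lists were chosen with earlier results of these data known. Named genes are all members, every gene of the calmodulin and the inhibitor and phosphatase lists, up to 4 genes of each other list with the largest change at T2 against T0 past the threshold, where groups did not overlap and the mean log2 CPM was not under 1, and the 5 genes most correlated with Camk2a (log2 CPM with a prior count of 2). Dapk2, Camkv, Pde1a, Crtc1, Grin1, Shank3, Npas4, Ogg1 and 2310026I22Rik were named after their values or positions were seen. A result under the rule is not reported here. Positions were taken from GENCODE vM1 on NCBIM37 (mm9), and promoter sequences from RefSeq (GRCm38.p6). For T2 the study's text and its table of samples differ in the number of replicas, and for T3 in the time after the change to medium B. The labels were followed.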

Additional observations from a re-analysis of the deposited data

Results flagged for a closer look

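The level of Camk1g in T2 replicate 1, 0.869 CPM, was far from the other T2 libraries, which stood at 0.65, 0.64 and 0.675 CPM. These values rest on 9, 7, 7 and 11 reads. Of 20 series of 4 T2 values examined, this was the 1 with such a gap, and chance gives about 1 in 20. Without that library the difference of Camk1g at T2 against T0 was -2.38, against -2.27 with it.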

How the results depend on the processing

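Counts of members called, over the 9 members without Camk2a and with Camk1g, moved most for the lower ones. At T1 against T0 limma on FPKM called 1 lower with a pseudocount of 1 and 2 with 0.1, instead of 5. At T2 against T0 the replicate block called 1 lower and limma with a pseudocount of 1 called 3, instead of 5. At T3 against T0 limma called 0 higher with either pseudocount, instead of 1, and DESeq2 and 1 fit of all libraries each called 1 lower, instead of 0. At T3 against T2 no filter called 2 lower and DESeq2 3, instead of 1, and the fit of all libraries, the replicate block and limma with either pseudocount called 0. With 1 library left out, the counts ranged from 1 to 4 higher and 2 to 5 lower at T1 against T0, from 4 to 4 and 2 to 5 at T2 against T0, from 0 to 1 and 0 to 1 at T3 against T0, from 0 to 0 and 0 to 0 at T2 against T1, and from 0 to 3 and 0 to 3 at T3 against T2. The causes were not tested.

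A total of 10 values changed sign, none of them called in either fit: Camk4 at T3 against T0 (limma, 0.18 and 0.35), Camk1g at T3 against T0 without T3 replicate 1 (0.02), Camkk2 at T3 against T0 without T0 replicate 3 (0.09), Camk2g (-0.04 and -0.04) and Camkk2 (-0.05 and -0.07) at T2 against T1 with limma, Camk4 at T2 against T1 without T2 replicate 2 (-0.04), and Camk2b at T3 against T2 without T3 replicate 4 (-0.01). At T1 and T2 against T0, 102 of 124 and 115 of 133 values of single members kept their direction and side of the threshold, and 0 reversed.

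The replicate block used only libraries whose number occurs in both groups, so it left out T2 replicate 4 against T0 and T1. Against T3 it left out T2 replicates 2 and 3. It changed no call of T2 against T1, where the numbers may pair the libraries. The calls of Camk2b, Camk4, Camk1d and Camkk2 at T2 against T0 and of Camkk1 at T3 against T2 were lost. With T2 replicate 4 left out and no block, those of Camk4, Camk1d and Camkk2 were lost as well. The parts of the block and of the fewer libraries were not tested. For T3 against T0 the block was not run, since the groups share the number 1 alone. Over all genes at T2 against T1 the block called 162 higher and 47 lower, instead of 71 and 7.

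Over single members, values with 1 library left out that changed sign ranged from -1.55 to 0.02 for Camk1g and from -0.42 to 0.09 for Camkk2 at T3 against T0, from -0.04 to 0.36 for Camk4 at T2 against T1, and from -0.01 to 1.01 for Camk2b at T3 against T2.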
